A study of Homo sapiens with 6 samples.

Results

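The genes described here encode the proteasome, the protease that degrades proteins tagged with ubiquitin. Its 20S core is a barrel of alpha and beta rings with the cutting sites inside. The 19S cap recognises tagged proteins, removes the ubiquitin and unfolds them with a ring of ATPases, and the 11S activators open the core without ubiquitin. In cells of the immune system or after interferon, the catalytic beta subunits PSMB5, PSMB6 and PSMB7 can be exchanged for PSMB8, PSMB9 and PSMB10. Plasma cells and myeloma cells, which secrete or once secreted antibody, depend on this protease, and it is the target of drugs used in myeloma.

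The list held 37 genes and was chosen by name: 17 genes of the 20S core, 17 of the 19S cap and 3 of the 11S activators. GENCODE release 44 gives these genes 413 transcripts, of which 193 were in the matrices among 46484 human transcript identifiers. In human cells, 146 of the transcripts had counts, and all 37 genes had counts in at least 1 library, out of 9830 human genes counted. Only 12 of the 37 genes had counts in all 5 libraries, and 19 reached 50 counts over the 5 libraries together.

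The study mixed a human and a mouse myeloma line, labelled JJN3 and 5TGMG1, and read single-cell cDNA on nanopores after different numbers of PCR cycles. The groups were 10X Chromium with 30 or 35 PCR cycles (2000 cells each in the labels) and Drop-seq with 30 or 35 cycles (500 cells each) or 25 cycles (1000 cells). Each group was 1 library, so no comparison between groups has a replicate or a test. All intervals are 95% intervals that treat every count as independent and cover counting error at most. Counts assigned more than once within a gene, described below, and counts gathered in few cells make these intervals too narrow. A sixth sample, with read numbers only, was not used. A count is a unique molecular identifier (UMI), a tag that marks 1 copied RNA molecule, assigned to 1 transcript and 1 barcode.

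Barcodes were ordered by their total count and taken down to the number of cells in the label, and those with at least 90% of counts on human transcripts were called human cells. They numbered 1006 and 911 in 10X at 30 and 35 cycles, and 251, 166 and 165 in Drop-seq at 25, 30 and 35 cycles. Their human counts came to 161961 and 199308 in 10X, and to 115245, 67144 and 93499 in Drop-seq, with medians of 118 to 352 counts per cell. The smallest stored value was 2 in both 10X libraries, 1 in Drop-seq at 25 cycles and 3 in the other Drop-seq libraries, so a missing entry is not a true 0 and no limit is given for genes without counts. Of the human cell barcodes, 722 were shared by the 10X libraries and 133 to 145 by each pair of Drop-seq libraries, while none was shared between platforms. The stored barcodes are shorter than the study's methods describe, so different cells may share one.

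The human cells of the Drop-seq libraries went against their label. In 10X, all 10 plasma cell markers had counts (1095 counts at 30 cycles and 876 at 35), and of 15 T cell markers only LAT and CD28 had any, with 4 and 2 counts in all. In Drop-seq at 25, 30 and 35 cycles, 9, 5 and 6 of the 15 T cell markers had counts, 277, 157 and 179 in all, led by CD3G and TRBC1. Of the plasma cell markers only MZB1 had counts there, with 15, 5 and 7, and SDC1, TNFRSF17, XBP1, PRDM1, IRF4 and JCHAIN were listed at 0. The labels name JJN3, a myeloma line, for every library, while other parts of the study's text name Jurkat, a T cell line. Platform, the identity of the human cells and the smallest stored value therefore cannot be told apart in any comparison between 10X and Drop-seq below.

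Counts were also assigned more than once within a gene, which the coding sequences of the genes make visible. Of 58 pairs of counted coding transcripts that set a gene's reference transcript (MANE) beside another, 10 differed by a single stretch of at most 60 bases inside the coding sequence. In 3 of these 10 pairs, in PSMA3, PSMB6 and PSMD4, the longer and the shorter transcript had the same counts in every library. PSMB6, the standard caspase-like subunit, shows this most fully, since both transcripts had 2 and 21 counts in 10X at 30 and 35 cycles and 16, 14 and 18 in Drop-seq at 25, 30 and 35 cycles. The stretch that only the longer transcript holds is in capitals, with 20 bases of coding sequence on each side (GENCODE 44 on hg38, plus strand, chr17:4798260-4798279).
PSMB6 ENST00000614486: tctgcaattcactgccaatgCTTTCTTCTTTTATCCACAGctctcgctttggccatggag
PSMB6 ENST00000270586: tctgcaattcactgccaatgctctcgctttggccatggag

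PSMD4, the ubiquitin receptor Rpn10, had equal counts of 2 and 4 in 10X and 2, 0 and 4 in Drop-seq on a pair that differs by 9 bases (plus strand, chr1:151266113-151266121).
PSMD4 ENST00000368881: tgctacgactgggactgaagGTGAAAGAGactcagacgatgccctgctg
PSMD4 ENST00000368884: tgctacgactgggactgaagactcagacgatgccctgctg

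Other pairs were counted apart. PSMD12, a scaffold subunit of the 19S lid, had 13 and 23 counts in 10X at 30 and 35 cycles on the transcript with a stretch of 60 bases and 2 and 10 on the one without it (minus strand, chr17:67357519-67357578).
PSMD12 ENST00000356126: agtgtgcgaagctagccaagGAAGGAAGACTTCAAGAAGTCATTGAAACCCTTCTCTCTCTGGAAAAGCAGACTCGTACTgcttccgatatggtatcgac
PSMD12 ENST00000357146: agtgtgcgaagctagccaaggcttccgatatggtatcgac

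PSME2, the beta subunit of the 11S activator, had 83 counts over the 5 libraries on the transcript with a stretch of 33 bases and 7 on the one without it (minus strand, chr14:24146208-24146240).
PSME2 ENST00000216802: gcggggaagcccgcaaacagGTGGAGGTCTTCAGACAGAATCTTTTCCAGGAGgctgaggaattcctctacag
PSME2 ENST00000560410: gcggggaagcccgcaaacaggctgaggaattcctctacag

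In each library, 57.0% to 69.5% of the gene and cell pairs with proteasome counts held them on 2 or more transcripts of the gene. In 89.8% to 100% of those, at least 2 transcripts had the same count. In 10X the 352 and 584 proteasome counts fell on 168 and 276 entries, so most entries held the smallest stored value of 2. Equal counts in 10X, here and in the pairs above, were therefore largely fixed by that floor. In Drop-seq at 25 cycles, with a floor of 1, the 1018 counts fell on 330 entries. Of these counts 850 remained with values below 2 left out. Many entries there thus held 1, and equal counts in that library, among them those of PSMD4 from 2 cells, were also partly fixed. Keeping only the highest transcript of a gene in each cell lowered the proteasome counts 1.81 and 1.95 times in 10X and 2.06 to 2.08 times in Drop-seq. Over all human genes the same step lowered counts 1.47 and 1.53 times in 10X and 2.04 to 2.13 times in Drop-seq. Sums over transcripts are therefore given with the number of cells behind them for the leading genes, and with the value from the highest transcript for the ranks and the results it moves.

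The proteasome genes took a smaller share of human counts in 10X than in Drop-seq. The share was 0.217% (0.195 to 0.241, 352 counts) and 0.293% (0.270 to 0.318, 584 counts) in 10X at 30 and 35 cycles. In Drop-seq it was 0.883% (0.830 to 0.939, 1018 counts) at 25 cycles, 0.888% (0.818 to 0.961, 596 counts) at 30 and 0.797% (0.741 to 0.856, 745 counts) at 35. The 3 Drop-seq intervals overlapped each other, the 2 from 10X did not, and no 10X interval reached a Drop-seq one. As the intervals are too narrow, the separation of the 2 from 10X is uncertain. With only the highest transcript of a gene in a cell, the shares were 0.177% and 0.229% in 10X and 0.784% to 0.913% in Drop-seq. With stored values below 3 left out of every library, they were 0.0999% and 0.113% in 10X and 0.797% to 0.936% in Drop-seq. This step cannot change Drop-seq at 30 and 35 cycles, which store no value below 3. In 10X it left 48 and 96 of the 352 and 584 proteasome counts, on 6 and 9 genes. The wider gap came with this loss of most 10X proteasome counts and is not a result about the platforms.

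**Figure D1:**
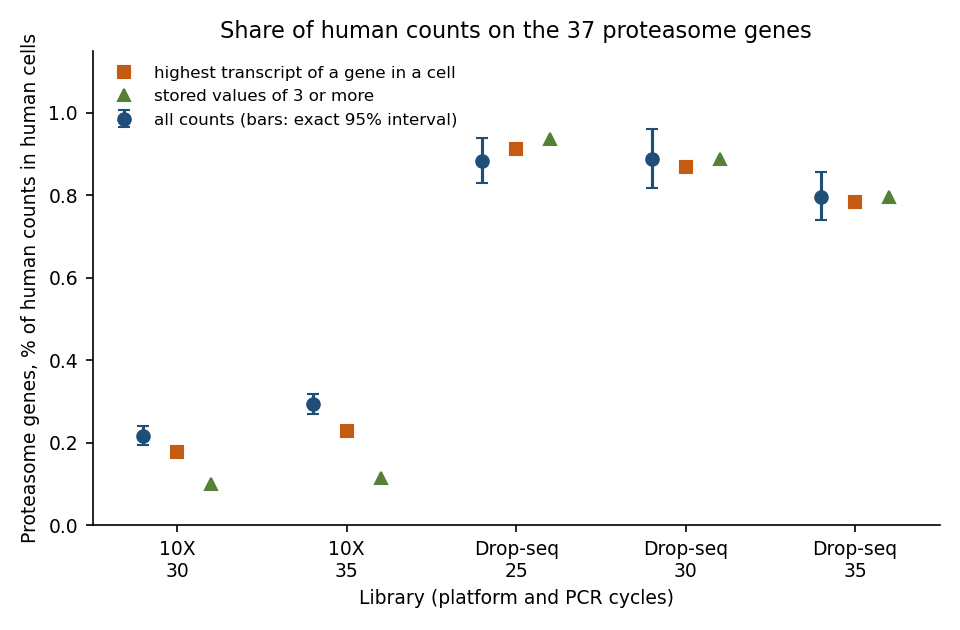
Share of human counts in human cells on the 37 proteasome genes (y axis, percent) in each library (x axis, platform and PCR cycles). Circles are all counts with exact 95% intervals, squares keep the highest transcript of a gene in a cell and triangles keep stored values of 3 or more; the Drop-seq points lie between 0.784% and 0.936% and the 10X points between 0.0999% and 0.293%.

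Counts on these genes were spread over few cells. At least 1 proteasome count was found in 89 of 1006 human cells (8.85%, 7.16 to 10.8) and 127 of 911 (13.9%, 11.8 to 16.4) in 10X. In Drop-seq it was found in 103 of 251 cells (41.0%, 34.9 to 47.4), 43 of 166 (25.9%, 19.4 to 33.3) and 46 of 165 (27.9%, 21.2 to 35.4). The library at 25 cycles stores values from 1 and the other Drop-seq libraries from 3. Cycle number and stored values cannot be told apart there. Expected at 100 counts per cell, with 348 shallower cells of 10X at 30 cycles left out and none elsewhere, the shares were 9.27% and 11.7% in 10X and 28.7%, 20.9% and 21.6% in Drop-seq.

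Mouse cells, which should lack human transcripts, gave the background. Of them 0 of 806 and 1 of 881 in 10X, 41 of 590 in Drop-seq at 25 cycles, and 0 of 291 and 0 of 309 at 30 and 35 cycles held a human proteasome count. At 25 cycles that is 6.95% of mouse cells, at a median of 282.5 counts per mouse cell and 271 per human cell. In that library, 109 of the 15403 human counts in mouse cells were on proteasome genes, a share of 0.708% (0.581 to 0.853). The 10 human cells with the most proteasome counts held 21.3% and 17.5% of these counts in 10X, against 41.4%, 52.2% and 49.9% in Drop-seq.

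The makeup of the counts differed between platforms. In 10X the 19S cap held 66.5% (61.3 to 71.4) and 66.3% (62.3 to 70.1) of the proteasome counts at 30 and 35 cycles, against 26.3%, 32.9% and 29.0% in Drop-seq at 25, 30 and 35 cycles. The 20S core held 30.7% and 25.2% in 10X, against 60.9% (57.8 to 63.9), 52.3% (48.3 to 56.4) and 59.1% (55.4 to 62.6) in Drop-seq. The 11S activators held 2.84% and 8.56% in 10X and 12.8%, 14.8% and 11.9% in Drop-seq. Counted as pairs of a gene and a cell, which ignores how many counts a cell gave, the 19S cap had 62.4% of the pairs in both 10X libraries and 22.8% to 25.8% in Drop-seq.

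**Figure D2:**
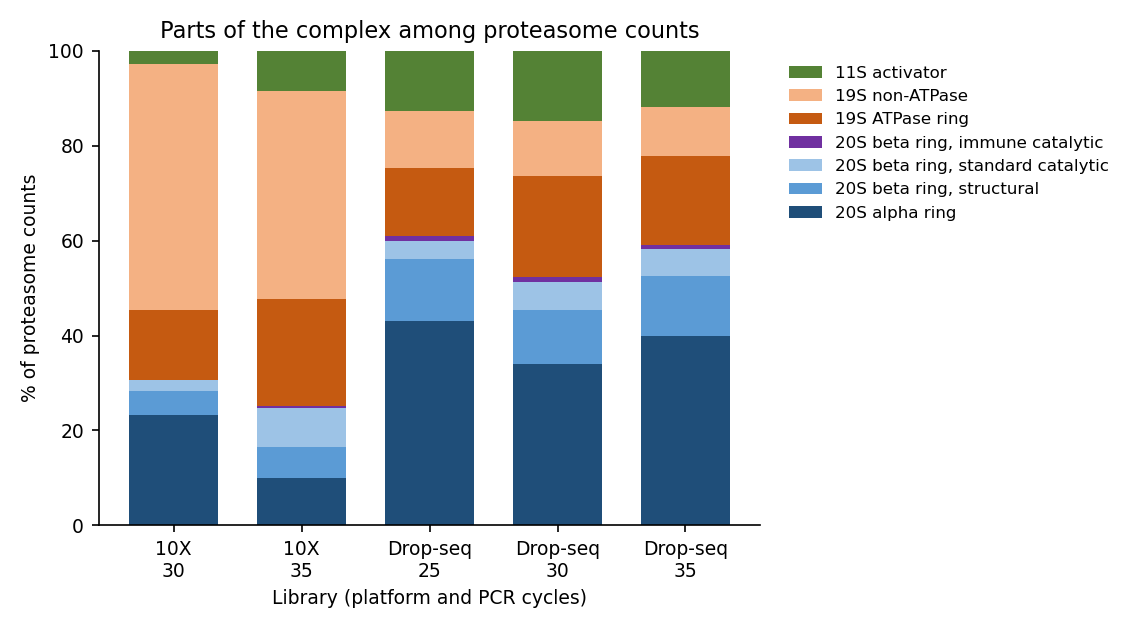
Percent of the proteasome counts (y axis) that fell on each part of the complex in each library (x axis, platform and PCR cycles). Orange tones are the 19S cap, blue and purple tones the 20S core and green the 11S activators; the 19S cap makes up 66.5% and 66.3% of the bars in 10X and 26.3% to 32.9% in Drop-seq.

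The alpha ring, which gates the entrance of the 20S core, led the Drop-seq libraries in summed counts through 3 of its 7 genes. In pairs of a gene and a cell it had 40, 13 and 16 at 25, 30 and 35 cycles. The 4 structural beta genes had 37, 15 and 15. With the highest transcript only, the shares of proteasome counts at 30 cycles were 25.9% and 24.1%. PSMA6 (alpha1, chr14:35278633-35317493) had 2 and 2 counts in 10X, each from 1 cell, and 185, 68 and 146 counts in Drop-seq at 25, 30 and 35 cycles, from 9, 3 and 5 cells. PSMA4 (alpha3, chr15:78540405-78552417) had 4 and 14 counts in 10X and 114, 79 and 89 in Drop-seq, from 10, 5 and 6 cells. Both genes were thus far higher in every Drop-seq library than in either 10X library, but on counts from at most 10 cells of a library.

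PSMA7 (alpha4) had counts in every library, with 24 and 28 counts from 6 and 7 cells in 10X and 98, 46 and 50 counts from 12, 3 and 3 cells in Drop-seq. PSMA3 (alpha7) went the other way, with 38 counts from 8 cells in 10X at 30 cycles, 4 at 35 cycles, 2 in Drop-seq at 25 cycles and none in the other Drop-seq libraries. PSMA1, PSMA2 and PSMA5 stayed between 0 and 16 counts in every library.

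Levels of different genes were ranked as CPM, counts scaled to 1000000 human counts, divided by the mean length in kilobases of the transcripts that held the counts. On this scale per length PSMA6 ranked 1 among the 37 genes in all 3 Drop-seq libraries, at 1631, 1032 and 1599 CPM per kilobase. With the highest transcript only it ranked 2, 4 and 1, and PSMB3 led at 25 cycles and PSME2 at 30. PSMA7 ranked 2, 3 and 2 there, at 911.1, 780.8 and 610.9, and 5, 7 and 7 with the highest transcript only. PSMA4 ranked 2, 1 and 2 by CPM but 6, 5 and 7 per length, as its counts fell on transcripts of 2355 to 2483 bases on average. In 10X, PSMA3 ranked 1 per length at 30 cycles with 292.7 CPM per kilobase, and 22 at 35 cycles with 20.0; with the highest transcript only these ranks were 1 and 13.

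Of the structural beta genes, PSMB3 (beta3) had 4 and 22 counts in 10X from 2 and 10 cells, and 65, 22 and 32 in Drop-seq from 22, 4 and 6 cells. Its 22 cells at 25 cycles were the most of any of the genes in a Drop-seq library. PSMB1 and PSMB4 had 2 to 6 counts in 10X, from 1 to 3 cells, and 20 to 43 in Drop-seq, from 3 to 8 cells, and PSMB2 had 3 to 10 counts in every library.

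The catalytic genes were compared as standard against immune subunits. Immune subunits had 0 of the 8 counts on the 3 exchanged pairs in 10X at 30 cycles and 3 of 51 (5.88%, 1.23 to 16.2) at 35 cycles. In Drop-seq they had 11 of 48 (22.9%, 12.0 to 37.3), 7 of 41 (17.1%, 7.15 to 32.1) and 6 of 49 (12.2%, 4.63 to 24.8) at 25, 30 and 35 cycles. The intervals of 10X at 35 cycles and of all 3 Drop-seq libraries overlapped, and the immune counts came from 1, 4, 2 and 1 cells, so a difference was not detectable at this depth. With the highest transcript only, which lowers the counts of the standard subunits and not those of the immune subunits, the shares were 0% and 10.7% in 10X and 34.4%, 25.9% and 19.4% in Drop-seq.

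Gene by gene, PSMB6 had the most catalytic counts in every library but 10X at 30 cycles, where it equalled PSMB7, with 4 and 42 counts in 10X from 1 and 10 cells and 32, 28 and 36 in Drop-seq from 8, 3 and 4 cells. PSMB5, which carries the chymotrypsin-like site that myeloma drugs bind, had 6 counts from 2 cells in 10X at 35 cycles and none elsewhere. PSMB7, the trypsin-like subunit, had 4 and 0 counts in 10X and 5, 6 and 7 in Drop-seq. Among the immune partners, PSMB8 had 5, 4 and 6 counts in Drop-seq, in each case from 1 cell, and PSMB9 had 6 counts from 3 cells at 25 cycles, 3 from 1 cell at 30 and none at 35. PSMB10 had 3 counts from 1 cell in 10X at 35 cycles and none elsewhere.

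PSMB8 (chr6:32840717-32844679) and PSMB9 (chr6:32844136-32859851) lie in the region of the major histocompatibility complex, and 6.48% to 7.91% of human counts were on identifiers absent from GENCODE 44 that could not be assigned to a gene. When human cells had to be at least 95% human, 121 of 251 cells remained at 25 cycles, and the immune share there was 0%, so all 11 immune counts came from cells between 90% and 95% human.

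**Figure D3:**
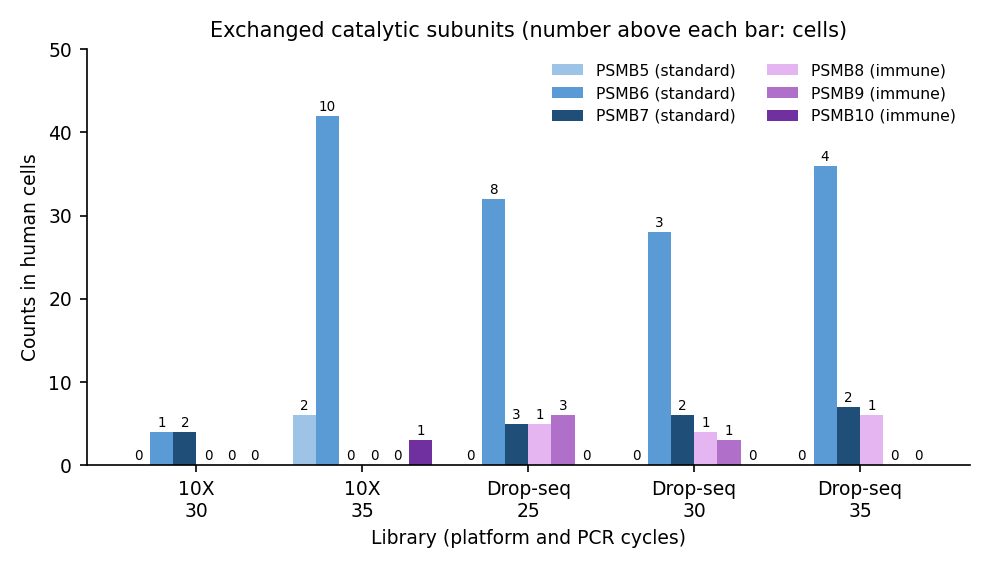
Counts in human cells (y axis) of the standard (blue) and immune (purple) catalytic subunits in each library (x axis, platform and PCR cycles), with the number of cells behind each bar above it. PSMB6 is the tallest bar in every library but 10X at 30 cycles, where it equals PSMB7 at 4 counts; no immune bar exceeds 6 counts or 3 cells.

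The ATPase ring unfolds proteins and threads them into the core. PSMC3 (Rpt5, chr11:47418769-47426473) had 22 counts from 4 cells and 103 counts from 15 cells in 10X at 30 and 35 cycles, and none in any Drop-seq library. It ranked 1 among the 37 genes in 10X at 35 cycles, by CPM and per length, on sums of 33, 33, 33 and 4 counts over 4 transcripts. With the highest transcript only it had 33 counts, against 52 for PSMD7, and ranked 2 by CPM and 4 per length. PSMC5 (Rpt6, chr17:63827152-63832026) showed the opposite, with 8 and 0 counts in 10X and 63, 71 and 64 in Drop-seq, from 2, 2 and 3 cells. Those 2 to 3 cells set its whole level, and 1 cell alone gave 87.3% of its counts at 25 cycles. With the highest transcript only PSMC5 had 15, 17 and 16 counts in Drop-seq at 25, 30 and 35 cycles. Its ranks by CPM there were 6, 2 and 3, and 11, 7 and 9 with the highest transcript only.

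PSMC1 (Rpt2) had 8 and 8 counts in 10X and 50, 40 and 62 in Drop-seq, from 9, 1 and 3 cells. Its processed pseudogenes PSMC1P1 and PSMC1P12 also had counts in Drop-seq, 11, 18 and 11 in all, and none in 10X, so counts between the gene and its copies are uncertain. PSMC2 (Rpt1) had 0 and 12 counts in 10X and 28, 16 and 14 in Drop-seq, from at most 3 cells of a library. PSMC6 (Rpt4) had 14 and 6 counts in 10X, from 3 cells each, and none in Drop-seq, and PSMC4 (Rpt3) had at most 5 counts in any library.

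The other 19S genes, which recognise substrates and remove ubiquitin, held the most counts in 10X. PSMD11 (Rpn6, chr17:32444379-32483319), a lid scaffold, had 64 and 39 counts in 10X from 15 and 11 cells, and 5, 12 and 7 in Drop-seq from 2, 2 and 1 cells. PSMD7 (Rpn8, chr16:74296814-74306288), the partner of the deubiquitinase, had 44 and 101 counts in 10X from 11 and 23 cells and 10, 12 and 20 in Drop-seq from 3, 1 and 1 cells. PSMD12 (Rpn5, chr17:67337916-67366605) had 27 and 43 counts in 10X from 9 and 11 cells and none in Drop-seq. At 30 cycles these 3 genes had the most cells of all 37 in 10X, and at 35 cycles only PSMC3, with 15 cells, stood between them.

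PSMD7 ranked 2 per length in both 10X libraries, at 178.3 and 334.2 CPM per kilobase, and 2 and 1 with the highest transcript only, while PSMD11 ranked 1 by CPM and 4 per length at 30 cycles. PSMD8 (Rpn12), also of the lid, had more counts in Drop-seq, 42, 28 and 24 from 7, 3 and 3 cells, against 0 and 10 in 10X, the latter from 2 cells. PSMD14 (Rpn11), the deubiquitinase of the lid, had 8 and 12 counts in 10X from 3 and 6 cells, 18 and 14 in Drop-seq at 25 and 30 cycles from 1 cell each, and none at 35. PSMD1, PSMD2, PSMD3, PSMD4, PSMD6 and PSMD13 stayed at or below 24 counts in every library, PSMD3 with counts only in Drop-seq and PSMD13 only in 10X at 30 cycles.

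The activators PSME1 and PSME2, which form the interferon-inducible 11S ring, had most of their counts in Drop-seq. PSME2 (chr14:24143362-24147570) had 0 and 8 counts in 10X and 76, 51 and 34 in Drop-seq from 12, 6 and 4 cells. PSME1 had 0 and 4 counts in 10X and 37, 15 and 26 in Drop-seq from 7, 2 and 2 cells. PSME3, which forms a nuclear activator of its own, had 10 and 38 counts in 10X from 2 and 6 cells and 17, 22 and 29 in Drop-seq from 3, 1 and 2 cells.

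**Figure D4:**
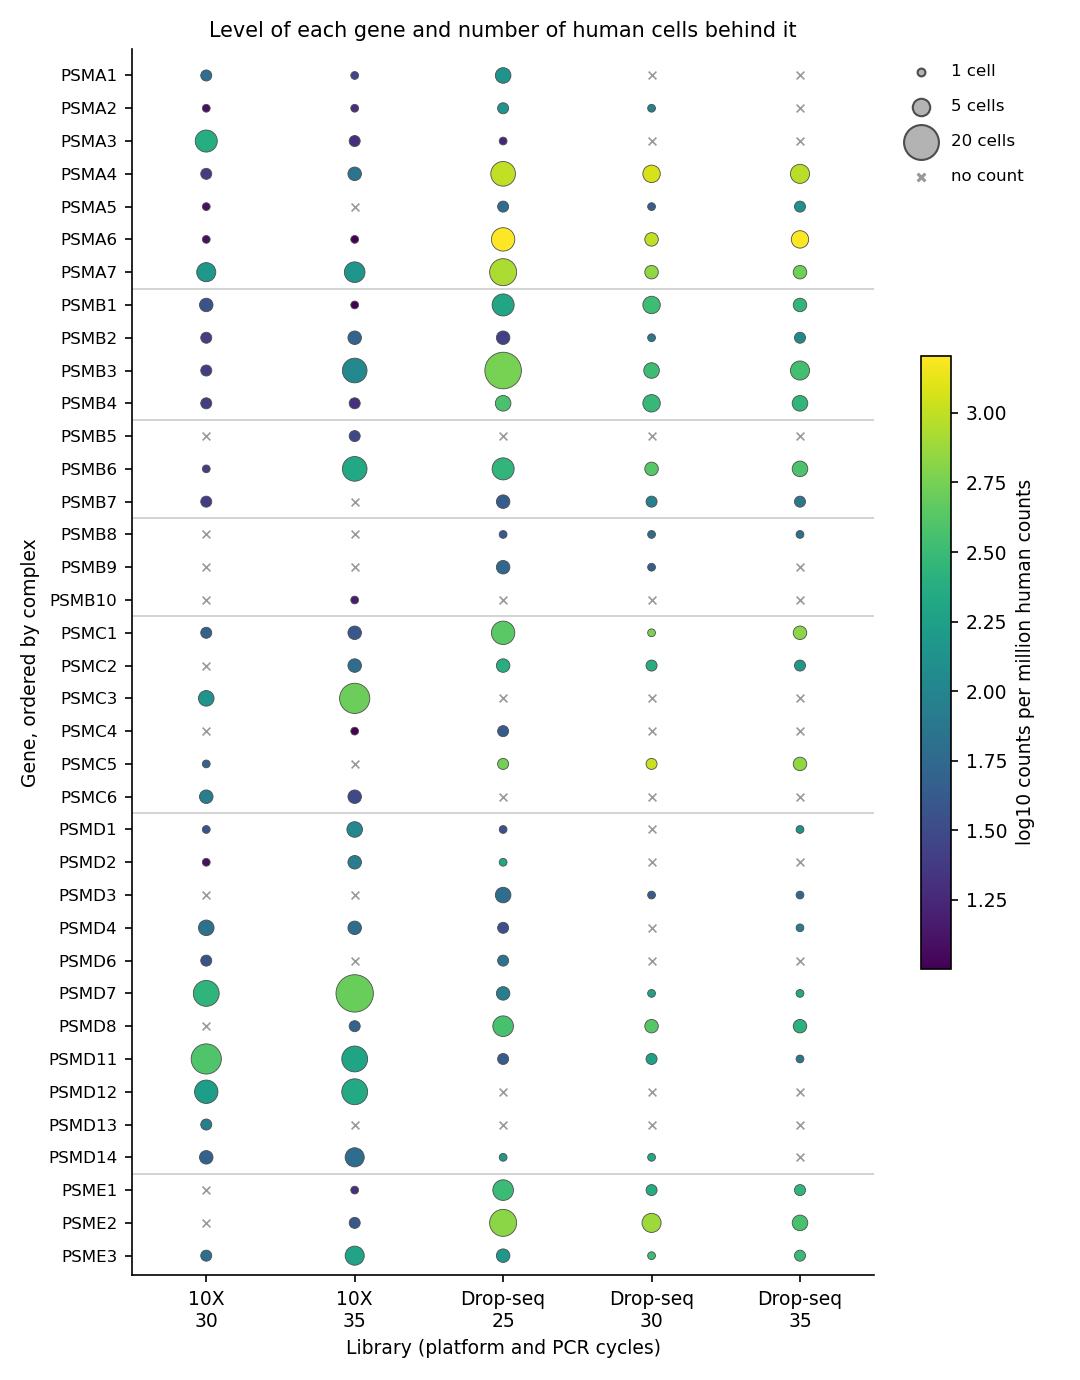
Each of the 37 genes (y axis, ordered by part of the complex) in each library (x axis, platform and PCR cycles). Circle area is the number of human cells with counts, from 1 to 23, colour is log10 of CPM and a cross marks no count; the widest circles are PSMD7 in 10X at 35 cycles and PSMB3 in Drop-seq at 25 cycles.

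The order of the 37 genes by CPM was alike within Drop-seq and not between platforms. Spearman's rho over the 37 genes was 0.78 to 0.88 between Drop-seq libraries, 0.44 between the 10X libraries, and -0.20 to 0.18 between libraries of different platforms. Genes without counts in both libraries of a pair are tied in these values. They numbered 6, 6 and 11 in the Drop-seq pairs, 11 in the pair with rho 0.88, 3 in 10X and 1 to 4 between platforms. Their part in rho was not tested. Libraries of 1 platform share most of their human cell barcodes, 53.0% to 87.9% of those in a library. The values of rho within a platform may therefore describe repeated reading of some of the same cells, though different cells may share a barcode. Counts in 1 platform only were found for 9 genes, with PSMB5, PSMB10, PSMC3, PSMC6, PSMD12 and PSMD13 in 10X and PSMB8, PSMB9 and PSMD3 in Drop-seq. Of these, only PSMC3 with 125 counts and PSMD12 with 70 counts exceeded 20 counts.

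The comparison of cycle numbers set libraries of 1 platform side by side. In Drop-seq at 30 against 25 cycles, the smallest stored value was 3 against 1. Cycle number and this floor cannot be told apart there. In 10X, the summed proteasome level was higher at 35 than at 30 cycles by 0.43 on the log2 scale (0.24 to 0.63), while the median of all 877 human genes with at least 50 counts over both libraries was -0.24. The 19S cap differed by 0.43 (0.19 to 0.67), the 20S core by 0.15 (-0.22 to 0.52) and the 11S activators by 2.02 (1.03 to 3.17), the last from 10 and 50 counts. Of the 37 genes, 5 had enough counts to be compared and 2 were past 2-fold, where 34.2% of all human genes compared were past 2-fold. PSMC3 was higher by 1.90 (1.25 to 2.66), and PSMD11 was lower by a log2 ratio of -1.01 (-1.63 to -0.42), which became -0.75 with the highest transcript only. PSMD7 was at 0.89 (0.38 to 1.44), and PSMD12 at 0.36 and PSMA7 at -0.08 had intervals across 0.

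The cells that carried the counts were hardly the same in the 10X libraries. Over the 722 human cell barcodes they share, 84 pairs of a proteasome gene and a cell had counts at 30 cycles and 128 at 35, and 2 pairs had counts at both, 2.38% of those at 30 cycles. For all human genes, 29.5% of such pairs at 30 cycles had counts again at 35. The part of the smallest stored value of 2 in this loss was not tested.

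In Drop-seq, the summed level at 35 against 30 cycles was -0.16 on the log2 scale (-0.31 to 0.00), and that at 30 against 25 cycles was 0.01 (-0.14 to 0.15). Between 30 and 35 cycles, 10 of the 37 genes were compared and 1 was past 2-fold, PSME2, where 7.55% of human genes compared were. PSME2 had 51 counts in 6 cells at 30 cycles and 34 in 4 cells at 35, a log2 ratio of -1.06 (-1.73 to -0.41), and PSMA6 was at 0.62 (0.20 to 1.06), within 2-fold. The call on PSME2 was lost when only barcodes that are human cells in both libraries were used. Between 25 and 30 cycles, 11 genes were compared and 0 were past 2-fold, where 25.3% of human genes compared were. The ratios ran from -0.76 in PSMB3 to 0.95 (0.44 to 1.46) in PSMC5, close to the limit of 1 on the log2 scale.

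In Drop-seq most pairs of a gene and a cell at 30 cycles were found in the other libraries too. Over 145 shared human cell barcodes, 44 of the 53 pairs of a proteasome gene and a cell at 30 cycles had counts again at 35, 83.0%, against 87.3% for all human genes. Over 135 shared barcodes, 51 of 53 pairs at 30 cycles had counts at 25, 96.2%, against 94.95% for all human genes. In the other direction, 51 of the 101 pairs at 25 cycles had counts at 30, 50.5%, against 45.0% for all human genes. Values of 1 are stored at 25 cycles and none below 3 at 30. The loss therefore cannot be assigned to the cycle number.

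The comparison of platforms at 30 cycles was made as a side by side description. The summed proteasome level was higher in Drop-seq by 2.03 on the log2 scale (1.84 to 2.22), a 4.08-fold ratio, and the median of 708 human genes compared was -0.20. The 11S activators differed by 4.41 (3.46 to 5.52), the 20S core by 2.80 (2.48 to 3.13) and the 19S cap by 1.01 (0.73 to 1.29). Of 7 genes compared, 6 were past 2-fold, where 85.3% of all human genes compared were, so the count is near the background. PSMA6 was higher by 6.05 (4.45 to 9.43), PSMA4 by 5.41 (4.16 to 7.49), PSMC5 by 4.34 (3.36 to 5.69) and PSMA7 by 2.19 (1.47 to 2.99). With the highest transcript only these log2 ratios were 4.92, 4.60, 4.55 and 1.85. PSME2 had 51 counts against a listing of 0, for which no ratio is given, and was counted as past 2-fold only through the pseudocount. PSMD11 was lower, at -1.10 (-2.17 to -0.24), and at -0.23 with the highest transcript only, while PSMD7 was at -0.56 with an interval across 0.

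**Figure D5:**
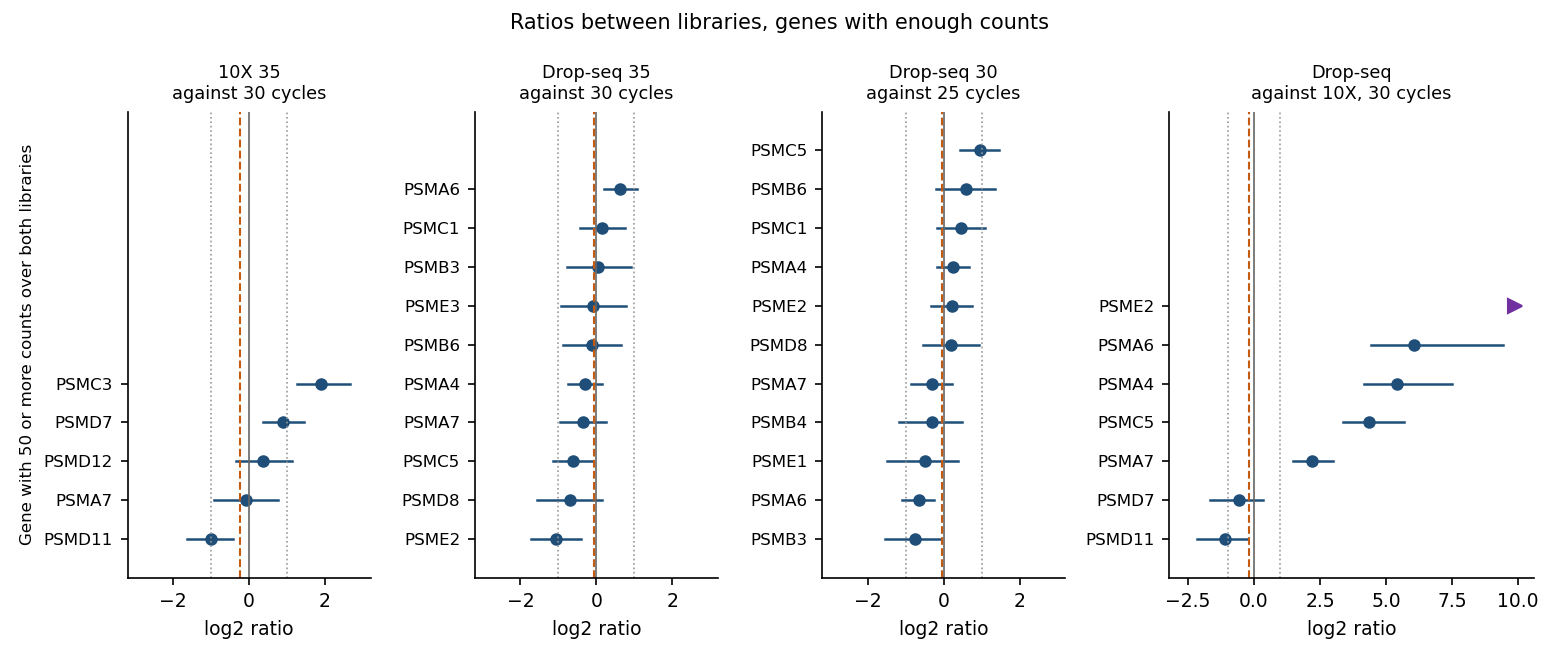
Log2 ratios (x axis) of the proteasome genes with at least 50 counts over both libraries (y axis) in the 4 comparisons, with exact 95% intervals. Dotted lines mark 2-fold, the dashed line the median of all human genes compared, and the triangle a gene listed at 0 in 10X, which has no ratio. In the platform comparison, 4 points and the triangle lie above 2-fold. None of the points from Drop-seq at 30 against 25 cycles does.

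The transcripts behind the counts also differed. Transcripts annotated as protein coding held 69.6% and 83.7% of the proteasome counts in 10X at 30 and 35 cycles and 85.6% to 87.6% in Drop-seq, against 75.1% and 76.2% and 79.5% to 80.1% of all human counts with an annotation. Retained introns held 12.5% and 3.60% in 10X and 6.48% to 7.89% in Drop-seq. The mean annotated length behind a proteasome count was 1927 and 1952 bases in 10X and 1456 to 1536 in Drop-seq, shorter in each library than that of all human counts, 3572, 2942 and 2106 to 2181 bases. PSMD7 shows the mixture, with 24 and 52 counts in 10X on its reference transcript and 20 and 49 on a transcript annotated for nonsense-mediated decay.

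Of 34 other genes of the ubiquitin and antigen processing pathways, 23 and 24 had counts in 10X and 16, 13 and 11 in Drop-seq. The ubiquitin gene UBB had 38 and 58 counts in 10X at 30 and 35 cycles and 175, 99 and 109 in Drop-seq at 25, 30 and 35. RPS27A, ubiquitin fused to a ribosomal protein, had 44 and 10 counts in 10X and 220, 64 and 117 in Drop-seq. POMP, which assembles the 20S core, had 8 and 24 counts in 10X and 108, 30 and 38 in Drop-seq. NFE2L1, a transcription factor of proteasome genes, had 24 and 76 counts in 10X and 8, 0 and 0 in Drop-seq. Between 10X libraries, 4 of the 34 genes were compared, of which NFE2L1 was higher by 1.34 and RPS27A was at -2.38. Between platforms at 30 cycles, UBB was higher in Drop-seq by 2.64 and RPS27A by 1.81. In Drop-seq none of 6 was past 2-fold between 30 and 35 cycles, while POMP was lower at 30 than at 25 cycles, at -1.05. The peptide transporter genes TAP1 and TAP2, which act after the immune subunits, had no counts in any library.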

How the data were processed

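Single-cell RNA was measured in 6 samples labelled as mixed JJN3 and 5TGMG1 cells, and 5 deposited matrices of whole-number UMI counts per barcode and transcript were used, as the authors deposited them. According to the study's methods, the authors base called reads with Guppy, mapped them with minimap2 to human and mouse transcripts, and counted UMIs with UMI-tools (10X) or with UMI-tools or their own homotrimer script (Drop-seq). The build in the submitters' notes is hg38. The filter behind the smallest stored values is not given in the sources used here. Cycle numbers and cell numbers were taken from the labels, and the study's text describes the cycles in other ways.

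Transcripts were joined to genes by identifier without version (GENCODE 44), and 42740 of 46484 human identifiers matched. Human counts per sample in human cells ranged from 67144 to 199308. Counts were summed over human cells and divided by all human counts there. Shares have exact Clopper-Pearson intervals and ratios exact conditional binomial intervals at 95%. Both treat counts as independent, which repeated assignment within a gene breaks. Genes with at least 50 counts over both libraries were compared with a pseudocount of 0.5, and 2-fold was a rule of size, not a test. The rule was run on simulated data, with a pass limit that was loosened after a first failure. The simulated counts were independent, without repeated assignment, gathering in few cells or a smallest stored value. That run therefore cannot show how the rule performs on these libraries. The genes and lists were chosen with earlier results of these data known. All 37 genes may be named, those with at least 50 counts by library, and other genes only from a list of 34, some of which are not reported here. No doublet caller was run. Python 3.11.15, numpy 2.4.6, pandas 2.3.3, scipy 1.17.1 and matplotlib 3.10.9 were used.

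Alternatives changed the barcodes taken as cells, the purity of a human cell (80% and 95%), the values and transcripts counted, the scaling, the minimum (20 and 100 counts) and the pseudocount (1). Leaving out values below 2 and keeping the highest transcript were added after seeing the data.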

Additional observations from a re-analysis of the deposited data

How the results depend on the processing

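Without replicates, settings were compared with the counting interval of each value. No direction past 2-fold reversed. Of 50 shares of human counts under an alternative, 16 left the interval. With values below 3 left out, the 10X shares were 0.0999% and 0.113% at 30 and 35 cycles, on 48 and 96 proteasome counts. With protein coding transcripts only, for the proteasome genes alone, they were 0.151% and 0.245% in 10X and 0.756%, 0.777% and 0.693% in Drop-seq at 25, 30 and 35 cycles, a fall that follows from the construction. With the highest transcript they were 0.177% and 0.229% in 10X, and with identical transcripts counted once 0.250% in 10X at 35 cycles and 0.822% and 0.709% in Drop-seq at 25 and 35. All barcodes gave 0.752%, 0.756% and 0.716% in Drop-seq, and 95% purity gave 0.982% at 25 cycles. The immune share moved to 33.3% in 10X at 35 cycles with values below 3 left out and to 0% in Drop-seq at 25 cycles with 95% purity.

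The summed log2 ratio of 10X at 35 against 30 cycles was 0.18 with values below 3 left out, 0.70 with protein coding transcripts and 0.67 with the median of ratios. Drop-seq at 30 against 25 cycles was -0.16 with 95% purity. Drop-seq against 10X was 3.15 with values below 3 left out, 2.36 with protein coding transcripts, 2.30 with the highest transcript and 2.22 with the median of ratios. The 3.15 rests on 48 counts left in 10X at 30 cycles, while Drop-seq at 30 cycles lost none.

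Few genes had enough counts to be compared, and the number past 2-fold changed with the setting. In 10X it was 1 with the number of cells halved, with protein coding transcripts, with shared barcodes, without mitochondrial counts or with a pseudocount of 1, 0 with the highest transcript (2 compared) or values below 3 left out (0 compared), and 8 of 13 with a minimum of 20. In Drop-seq at 35 against 30 cycles it was 0 with the number of cells halved, barcodes of at least 100 counts, 80% purity, the highest transcript, shared barcodes, the median of ratios or a minimum of 100. At 30 against 25 cycles it was 1 with the number of cells halved, barcodes of at least 100 counts or protein coding transcripts, 2 with 95% purity and 3 of 18 with a minimum of 20. Between platforms it was 17 of 18 with a minimum of 20 and 0, with 0 compared, with a minimum of 100 or the highest transcript. The share of all human genes past 2-fold is given here only for the main setting, at 34.2%, 7.55%, 25.3% and 85.3% in the same order. The numbers under other settings thus have no background and are not results about the proteasome genes. The cause of these changes was not tested. By length, 3 to 5 of the 5 leading genes of a library stayed among the 5, and with the highest transcript 2 to 5. No paired analysis was possible because each group is 1 library. Leaving out a replicate was not possible for the same reason.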
